A study of Mus musculus with 4 samples.

Results

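The 10 genes described here encode the proteins that stand directly behind TNF receptors in the cell: the adaptors Traf1, Traf2, Traf3, Traf5 and Traf6, the ubiquitin ligases Birc2 (cIAP1) and Birc3 (cIAP2), the death domain adaptor Tradd, and the kinases Ripk1 and Map3k14 (NIK). They were taken by symbol, and all 10 were found among the 35798 named genes of the count table. The choice was made with earlier results of these data known. RNA was sequenced from Ly49H+ natural killer (NK) cells of donor mice that were either wild-type, carrying CD45.1, or TNFR2 KO, carrying CD45.2. Both kinds of cells had been transferred together into NSG hosts, the hosts were infected with murine cytomegalovirus (MCMV), and the cells were sorted from spleen by their CD45 allele on day 3.5. Each genotype had 2 libraries, and libraries of either genotype with the same number came from the same pool of 3 spleens. The labels give no ages. The donors lacked TNFR2 in all their cells, so the NK cells had developed without it, and CD45 allele and sort gate changed together with genotype and cannot be told apart from it. NSG hosts have no mature T, B or NK cells of their own but keep monocytes, macrophages and granulocytes.

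TNFR2 has no death domain and binds TRAF2 directly, whereas TNFR1 binds TRADD, which in turn brings in RIPK1 and TRAF2. TRAF2 carries the cIAPs to the receptor, where their ubiquitin chains on RIPK1 serve as a scaffold for the kinases of the canonical NF-kB pathway. In resting cells TRAF2, TRAF3 and the cIAPs keep NIK low by marking it for degradation, and receptors that use up TRAF2 and TRAF3, TNFR2 among them, let NIK build up and start the alternative NF-kB pathway, in which the Nfkb2 product is cut to p52. Traf1, Birc3 and Nfkb2 are known NF-kB target genes in many cells.

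Libraries held between 32713256 and 39543650 estimated counts. Expression is given in CPM, read counts relative to the TMM-scaled library size. Differences are log2-fold changes, positive where TNFR2 KO was higher, and were tested with the quasi-likelihood method of edgeR, with p-values adjusted after Benjamini-Hochberg over 13822 genes. Nothing in the labels says that the 2 libraries of a genotype are independent beyond their spleen pools, so the p-values measure only the spread between these libraries. Tnfrsf1b, the targeted gene, measured 264.7 and 268.6 CPM in wild-type and 55.1 and 58.6 CPM in TNFR2 KO (log2-fold change -2.23, standard error 0.0352). Counts summed per gene do not show which of its exons the remaining reads covered. The wild-type libraries also held more RNA of other blood cells. Of 22 macrophage or monocyte markers 21 were lower and 1 higher in TNFR2 KO, and their summed level was 3412 to 3445 CPM in wild-type and 1059 to 1078 CPM in TNFR2 KO. Of 15 neutrophil or granulocyte precursor markers all 15 were lower (1021 to 1039 against 97.8 to 102.2 CPM), of 10 mast cell or basophil markers 8, with 1 higher (1276 to 1280 against 103.5 to 104.4 CPM), of 10 erythroid markers all 10 (364.5 to 372.6 against 125.6 to 129.6 CPM), and of 10 dendritic cell or class II markers 5, with 1 higher (2135 to 2162 against 1033 to 1057 CPM). B cell markers summed to at most 7.805 CPM in any library, and 2 of 10 could be tested, both lower. T cell markers summed to 1699 to 1714 CPM in wild-type and 1555 to 1581 CPM in TNFR2 KO, with 8 of 12 lower and 2 higher. Of 31 NK cell markers 30 were higher in TNFR2 KO (18430 to 18560 against 33760 to 34060 CPM). No marker in these lists was at 0 in every library. In bulk RNA, fewer cells of a type cannot be told apart from less RNA per cell.

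The 10 genes differed by little between genotypes with TMM scaling. In the TNFR2 KO libraries Birc3 fell by 26.9% and Traf3 fell by 19.3%. The wild-type libraries held more RNA of other blood cells, and its part in these decreases was not tested. Tradd, Traf5, Traf1 and Birc2 were higher with TMM scaling, by 21.2%, 52.4%, 13.0% and 9.47%, although all 4 turned lower when the libraries were scaled on NK cell markers. Traf2, Traf6, Ripk1 and Map3k14 had adjusted p-values at or over 0.05. That makes 2 lower genes of 10, where 26.2% of all genes tested were lower, and 4 higher genes, where 24.2% of all genes were higher, so the share called (6 of 10) lay near the 50.4% of all genes with an adjusted p under 0.05. With edgeR 0 of the 10 also passed a log2-fold change of 1 in either direction, which 13.3% of all genes did (11.8% lower and 1.56% higher), and DESeq2 gave 0 as well. Of the 10 genes, 8 had an unadjusted p under 0.05, as did 55.7% of all genes tested. The median log2-fold change over the 10 genes was 0.10, beside -0.003 over all genes tested, and the median absolute change was 0.15, beside 0.22. The CPM ranges of the genotypes did not overlap in 9 of the 10 genes, as in 74.0% of all genes tested.

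**Figure D1:**
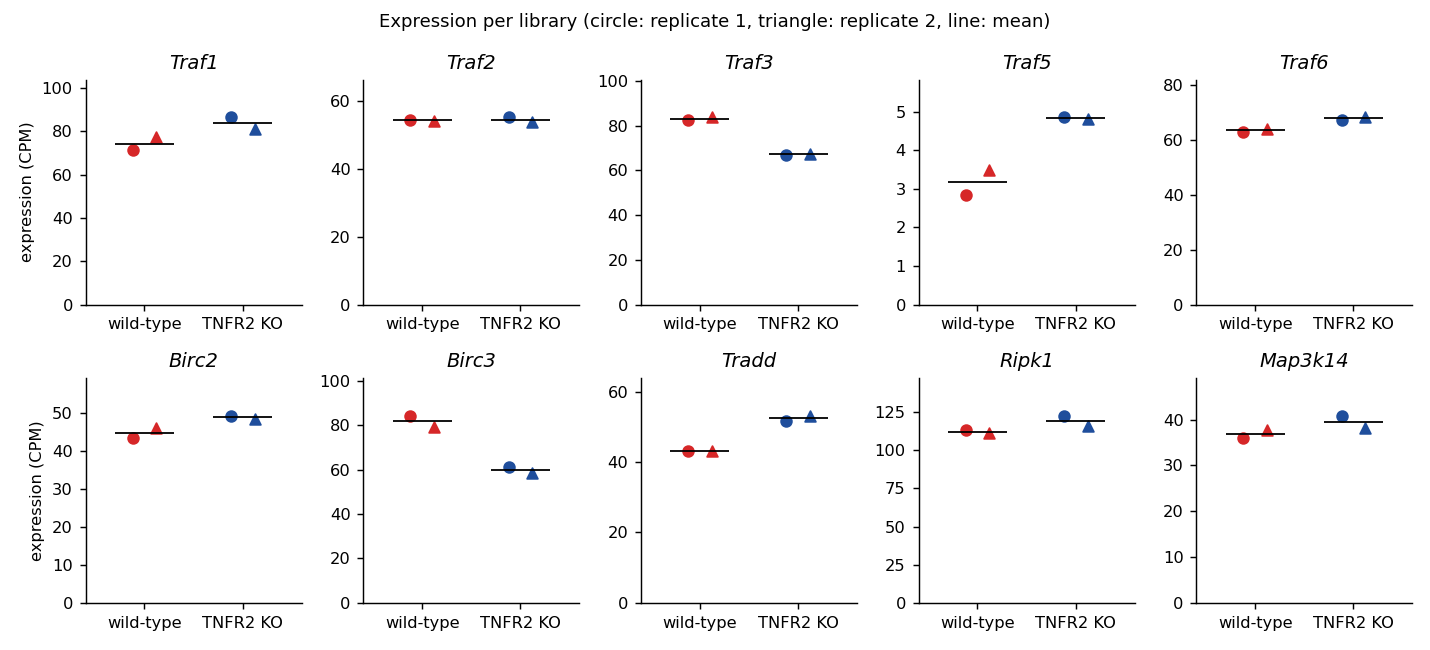
Expression of each of the 10 genes in CPM (vertical axis, from 0) in the wild-type (red) and TNFR2 KO (blue) libraries, with replicate 1 as a circle, replicate 2 as a triangle and the mean as a line. Birc3 and Traf3 sit lower in both TNFR2 KO libraries, Tradd and Traf5 sit higher with this TMM scaling (lower when scaled on NK cell markers), and Traf2 lies between 53.7 and 55.2 CPM in all 4.

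Among the adaptors that TNFR2 and its relatives bind directly, Traf2 was the most even with TMM scaling. Traf2, the adaptor that couples TNFR2 to the cIAPs, measured 54.4 and 54.1 CPM in wild-type and 55.2 and 53.7 CPM in TNFR2 KO, so that the genotypes overlapped. Its log2-fold change was 0.01 with a 95% interval from -0.09 to 0.10 (adjusted p = 0.917, edgeR). Only 1.78% of the genes tested had a smaller absolute change. The sign for Traf2 changed with the scaling and with the libraries used. With scaling on NK cell markers Traf2 was called lower, at -0.87 (adjusted p = 3.08e-09, edgeR).

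Traf3, which holds NIK in the complex that destroys it, measured 82.5 and 83.7 CPM in wild-type and 66.9 and 67.3 CPM in TNFR2 KO. Both TNFR2 KO libraries were below both wild-type libraries, at means of 83.1 ± 0.853 and 67.1 ± 0.295 CPM (SD, n = 2 each). The log2-fold change was -0.31 (adjusted p = 2.20e-05, edgeR), with a standard error of 0.0374. Leaving out single libraries gave -0.31 to -0.29, and the difference was called in all 11 alternative settings. Traf3 shares no stretch of 31 bases with any other gene of GENCODE release M21, and its counts lay within 1e-06 of a whole number in every library. In GRCm38 (mm10) its gene spans bases 111166370 to 111267153 of chromosome 12, plus strand.

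Traf1 lacks the RING finger of the other TRAFs and acts in complexes with TRAF2. It measured 71.3 and 77.2 CPM in wild-type and 86.6 and 81.0 CPM in TNFR2 KO. The genotypes did not overlap, but the gap between the nearest libraries was smaller than that between the wild-type replicates. The log2-fold change was 0.18 (adjusted p = 0.00880, edgeR), with a standard error of 0.0478, and it was no longer called without wild-type replicate 1 (0.13, adjusted p = 0.0662) or with library size alone as scaling (0.12, adjusted p = 0.0651). Compared within the spleen pools, the ratio of TNFR2 KO to wild-type CPM on the log2 scale was 0.28 in pool 1 and 0.07 in pool 2.

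Traf5, a close relative of Traf2 with overlapping receptors, was the least abundant of the 10. It measured 2.85 and 3.50 CPM in wild-type, from 108 and 129 counts, and 4.86 and 4.81 CPM in TNFR2 KO, from 188 and 154 counts. With TMM scaling its log2-fold change of 0.61 was the largest in size among the 10, whereas scaling on NK cell markers gave -0.27 (adjusted p = 0.152), the smallest in size. It was also the least precise under TMM, with a 95% interval from 0.24 to 0.98 (adjusted p = 0.00983, edgeR). The call was lost without wild-type replicate 1 (0.47, adjusted p = 0.0840), and the gene could not be tested where a mean of 10 CPM was required. Of its sequence in stretches of 31 bases, 11.4% also occurs in other genes, and its counts were fractional in all libraries.

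Traf6 serves the interleukin-1, interleukin-18 and Toll-like receptors as well as CD40. Its values were 62.9 and 63.9 CPM in wild-type and 67.4 and 68.3 CPM in TNFR2 KO, without overlap. The log2-fold change of 0.10 had a 95% interval from 0.01 to 0.18 and an adjusted p of 0.0612 in edgeR's test, short of the threshold. An increase of more than 0.18 or any decrease lies outside that interval under TMM scaling, whereas scaling on NK cell markers gave -0.78.

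**Figure D2:**
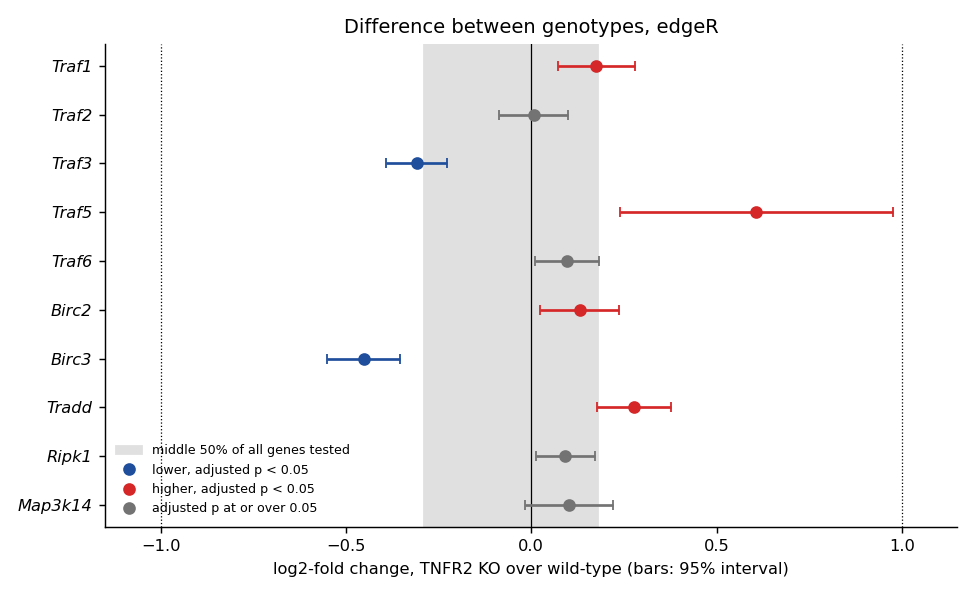
Log2-fold change (horizontal axis, positive where TNFR2 KO was higher) for each gene, with 95% intervals from edgeR as bars, the interquartile range of all genes tested as a grey band and a change of 1 in either direction as dotted lines. Traf3 and Birc3 lie left of the band and Traf5 and Tradd right of it with TMM scaling (the signs of Traf5 and Tradd turn when scaled on NK cell markers), and no interval crosses a dotted line.

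The cIAPs went in opposite directions with TMM scaling, and both were lower with scaling on NK cell markers. They are ubiquitin ligases that TRAF2 recruits, and their genes are neighbours on chromosome 9 (GRCm38, minus strand), Birc2 at bases 7818227 to 7837064 and Birc3 at 7848699 to 7873186. Birc3 measured 84.3 and 78.9 CPM in wild-type and 61.0 and 58.2 CPM in TNFR2 KO, both TNFR2 KO libraries lying well below both wild-type libraries. Its log2-fold change of -0.45 (adjusted p = 3.95e-06, edgeR), with a standard error of 0.0451, was the strongest decrease of the 10. Leaving out single libraries gave -0.49 to -0.40, and it was called in all 11 alternative settings. Birc2 measured 43.3 and 46.1 CPM in wild-type and 49.3 and 48.5 CPM in TNFR2 KO, which on the log2 scale was a difference of 0.13 (standard error 0.0490) that barely passed with an adjusted p of 0.0429. Birc2 lost its call with DESeq2 (adjusted p = 0.170), with library size alone (0.266), with a mean of at least 10 CPM (0.127), and without wild-type replicate 1 (0.233) or TNFR2 KO replicate 1 (0.0946), and it turned to -0.74 with scaling on NK cell markers.

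Since both cIAPs were measured in the same libraries, their ratio does not depend on how libraries are scaled. There were 1.945 and 1.71 Birc3 counts per Birc2 count in wild-type, and TNFR2 KO gave 1.24 in replicate 1 with a mean of 1.22 ± 0.0257 (SD, n = 2). The ratio was thus lower in both TNFR2 KO libraries, at 0.666 of its wild-type mean, while with 2 libraries against 2 an exact permutation test cannot give a two-sided p under 0.333. The ratio of Traf3 to Traf2 was 1.52 and 1.55 in wild-type and 1.21 and 1.25 in TNFR2 KO, and that of Traf3 to Map3k14 was 2.29 and 2.21 against 1.635 and 1.76. The Traf1 to Traf2 ratio moved the other way, from 1.31 and 1.43 to 1.57 and 1.51. None of these 4 ratios overlapped between genotypes, and they were chosen after the values of the genes had been seen. The CPM ranges of the genotypes did not overlap in 74.0% of all genes tested. The ratios that fell set Birc3 or Traf3, both lower as single genes, over genes that were not lower with TMM scaling. They therefore restate the differences of the single genes.

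**Figure D3:**
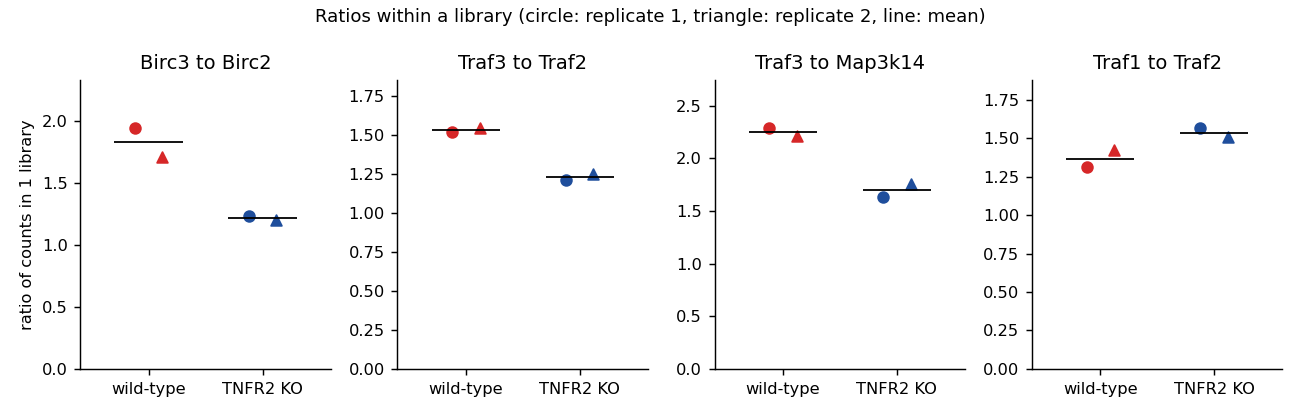
Ratio of the counts of a pair of genes within a library (vertical axis, from 0) in wild-type (red) and TNFR2 KO (blue), with replicate 1 as a circle, replicate 2 as a triangle and the mean as a line. The Birc3 to Birc2, Traf3 to Traf2 and Traf3 to Map3k14 ratios are lower in both TNFR2 KO libraries and the Traf1 to Traf2 ratio is higher.

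How far the cIAPs can be told apart depends on their sequence. The longest stretch that their coding transcripts have in common, inside both coding sequences, is 114 bases long, at positions 1111 to 1224 of the Birc2 and 1084 to 1197 of the Birc3 coding sequence counted from the start codon. It is shown, in capitals throughout as all of it is shared, because a single read of 100 bases can fall wholly inside it and then fits both genes. The reads were paired, and the other read of a pair may lie outside this run and separate the genes.
Birc2 and Birc3 shared run: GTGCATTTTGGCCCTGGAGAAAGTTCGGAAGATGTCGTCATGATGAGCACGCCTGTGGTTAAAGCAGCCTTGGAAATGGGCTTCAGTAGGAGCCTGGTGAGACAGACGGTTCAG
Over the whole gene, 2.69% of the stretches of 31 bases in Birc2 and 11.6% of those in Birc3 occur in other genes, the largest part in Gm7019, which was at 0.0791 CPM in wild-type replicate 1 and at 0 in the other 3 libraries. Counts of both cIAPs were fractional in every library, as were those of Traf1, Traf2, Traf5 and Ripk1, whereas Traf3, Traf6, Tradd and Map3k14 had counts within 1e-06 of a whole number throughout.

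Tradd and Ripk1 carry death domains and act at TNFR1. Tradd, the adaptor that TNFR1 but not TNFR2 uses, measured 43.2 CPM in both wild-type libraries against 51.5 and 53.2 CPM without TNFR2. With TMM scaling the TNFR2 KO libraries were both higher, with a log2-fold change of 0.28 (adjusted p = 2.92e-04, edgeR) and a standard error of 0.0458. It was called in all 11 alternative settings, as higher in 10 of them and as lower (-0.60) with scaling on NK cell markers. Tradd shares no stretch of 31 bases with another gene and spans bases 105258286 to 105264609 of chromosome 8, minus strand. Ripk1, the kinase and scaffold that the cIAPs ubiquitinate, was the most abundant of the 10 in CPM, at 113.1 and 111.0 CPM in wild-type and 122.7 and 116.1 CPM in TNFR2 KO. Its log2-fold change of 0.09 (95% interval 0.01 to 0.17) had an adjusted p of 0.0508 in edgeR's test and passed the threshold with the replicate block (adjusted p = 0.0371), with DESeq2's size factors (0.0448), without a filter (0.0199) and without TNFR2 KO replicate 2 (0.00560). With scaling on NK cell markers Ripk1 was called in the other direction, at -0.78 (adjusted p = 1.69e-09).

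Map3k14, the kinase that starts the alternative NF-kB pathway, is controlled mainly through the stability of its protein, which RNA does not show. It measured 36.0 and 37.8 CPM in wild-type and 40.9 and 38.3 CPM in TNFR2 KO. The libraries did not overlap, yet wild-type replicate 2 and TNFR2 KO replicate 2 were closer to each other than either was to its own duplicate. The log2-fold change was 0.10 with a 95% interval from -0.02 to 0.22 (adjusted p = 0.142, edgeR). With scaling on NK cell markers Map3k14 was called lower, at -0.77 (adjusted p = 7.17e-08, edgeR).

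Levels of different genes were compared per kilobase of the longest protein-coding transcript in GENCODE. In wild-type the order of the level in CPM per kilobase was Birc3 (28.05), Tradd (25.6), Traf1 (21.6), Traf2 (17.8), Ripk1 (17.3), Birc2 (13.4), Traf3 (11.8), Traf6 (10.3), Map3k14 (8.70) and Traf5 (1.62), and no neighbours in this order overlapped between their 2 libraries. In TNFR2 KO, Tradd stood first at 31 CPM per kilobase, ahead of Traf1 (24.4) and Birc3 (20.5). Ripk1 and Traf2 overlapped there, as did Traf3 (9.50) and Map3k14 (9.32). Birc3 thus went from the first to the third place, and Traf5 was last in both genotypes. These levels rest on 1 transcript length per gene, and the transcript forms in use were not measured.

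Birc3 and Traf3 fell together, so the 250 bases before their RefSeq start sites (GRCm38.p6, 5′ to 3′ on the strand of the gene) are shown, with any match to the NF-kB consensus, the kB motif, in capitals. The Traf3 sequence is on the plus strand at chr12:111166120-111166369 and the Birc3 sequence on the minus strand at chr9:7873171-7873420.
Traf3: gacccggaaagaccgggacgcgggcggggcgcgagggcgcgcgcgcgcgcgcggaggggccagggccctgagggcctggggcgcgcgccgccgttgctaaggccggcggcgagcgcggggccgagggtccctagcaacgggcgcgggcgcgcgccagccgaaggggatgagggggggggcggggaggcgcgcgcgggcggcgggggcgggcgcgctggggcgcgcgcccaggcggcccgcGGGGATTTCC
Birc3: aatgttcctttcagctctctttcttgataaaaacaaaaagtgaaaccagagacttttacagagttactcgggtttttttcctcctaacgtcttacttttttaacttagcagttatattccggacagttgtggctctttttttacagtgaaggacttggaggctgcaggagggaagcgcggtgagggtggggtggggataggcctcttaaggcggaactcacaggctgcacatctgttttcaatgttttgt
The motif was searched on both strands. Traf3 held 1 match, from the base 10 before the start site to the last base before it, and Birc3 held none. Of the 9 members with an entry, which are all but Tradd, Traf3 was the 1 with a match, beside 8.23% of all 27025 genes with an entry. Traf3 had 85.2% G and C and 49 CG dinucleotides in this window and Birc3 43.6% and 6, where the median over all start sites was 52.4% and 6. A match or its absence describes these letters alone.

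By the distance between log2 CPM values over the 4 libraries, each gene centred on its own mean, the genes most like Birc3 were Cnih4, Tbc1d23 and Agtrap, with log2-fold changes of -0.45, -0.45 and -0.43. Those most like Tradd were Tbc1d2b, Slc12a4 and Clk1, at 0.28 for each of them. These distances rest on 4 libraries in 2 groups.

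Upstream of the adaptors, the receptors showed larger differences. With TMM scaling 26.2% of all genes tested were lower and 24.2% higher, and 11.8% were lower past a change of 1. Of 15 receptors tested that bind TRAFs or TRADD, 8 were lower and 3 higher, with a median log2-fold change of -0.57, and 5 of the lower ones passed a change of 1. Beside Tnfrsf1b these included Cd40, which fell from 22.9 and 21.65 to 2.15 and 2.12 CPM (-3.38), and Ltbr, the lymphotoxin beta receptor, which fell from 23.4 and 24.55 to 3.335 and 3.465 CPM (-2.82). Tnfrsf1a, which encodes TNFR1, fell from 85.8 and 85.4 to 55.1 and 60.55 CPM (-0.57, adjusted p = 6.63e-07, edgeR). Tnf fell from 18.0 and 18.7 to 2.71 and 3.56 CPM (-2.555), and Ltb, the lymphotoxin beta chain, fell as well (-1.16). Lta measured 0.448, 0.597, 0.207 and 0.156 CPM, and its call (-1.49, adjusted p = 0.0393) was lost with the replicate block (adjusted p = 0.0618) and with DESeq2 (0.170). The macrophage or monocyte markers had a median log2-fold change of -2.96. Their part in the changes of Cd40, Ltbr, Tnfrsf1a, Tnf, Ltb and Lta was not tested.

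The other TRAFs and the proteins that bind TRAFs were divided, with 4 of 11 lower and 4 higher and a median of 0.05. Among all genes tested 26.2% were lower and 24.2% higher. Tifa encodes a TRAF-interacting protein of the TRAF6 pathway and Tifab its relative. Tifab fell from 71.85 and 68.4 to 8.32 and 7.12 CPM (-3.175), and Tifa fell from 20.4 and 19.6 to 2.64 and 1.84 CPM (-3.14). Trafd1, a TRAF-type zinc finger protein, fell by 0.52 on the log2 scale. The changes of Tifab and Tifa were of the size seen in the macrophage or monocyte markers given above. The part of these markers in the decreases of Tifab, Tifa and Trafd1 was not tested.

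Among the enzymes that write, read and remove ubiquitin chains at the receptor, 3 of 16 were lower and 8 higher with TMM scaling. Their median was 0.09, and of all genes tested 26.2% were lower and 24.2% higher. Over all the other pathway genes together, 19 were higher with TMM scaling, 12 with library size alone and 0 with scaling on NK cell markers. Otulin, which cuts linear chains, rose from 82.6 and 75.1 to 105.2 and 102.9 CPM with TMM scaling (0.40, adjusted p = 1.10e-05, edgeR), although it turned to -0.47 with scaling on NK cell markers. Tax1bp1, an A20 partner, fell by 0.26 on the log2 scale. Tnip3, another A20 partner, went from 3.90 and 4.69 to 0.724 and 1.06 CPM (-2.28). The macrophage or monocyte markers had a median of -2.96, and their part in the decreases of Tax1bp1 and Tnip3 was not tested. The subunits of LUBAC, the ligase that builds linear chains, are named after their values were seen. Rnf31, Sharpin and Rbck1 rose by 0.20, 0.21 and 0.14 with TMM scaling and read -0.67, -0.66 and -0.74 with scaling on NK cell markers, and the call on Rbck1 was lost with library size alone (adjusted p = 0.0796).

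**Figure D4:**
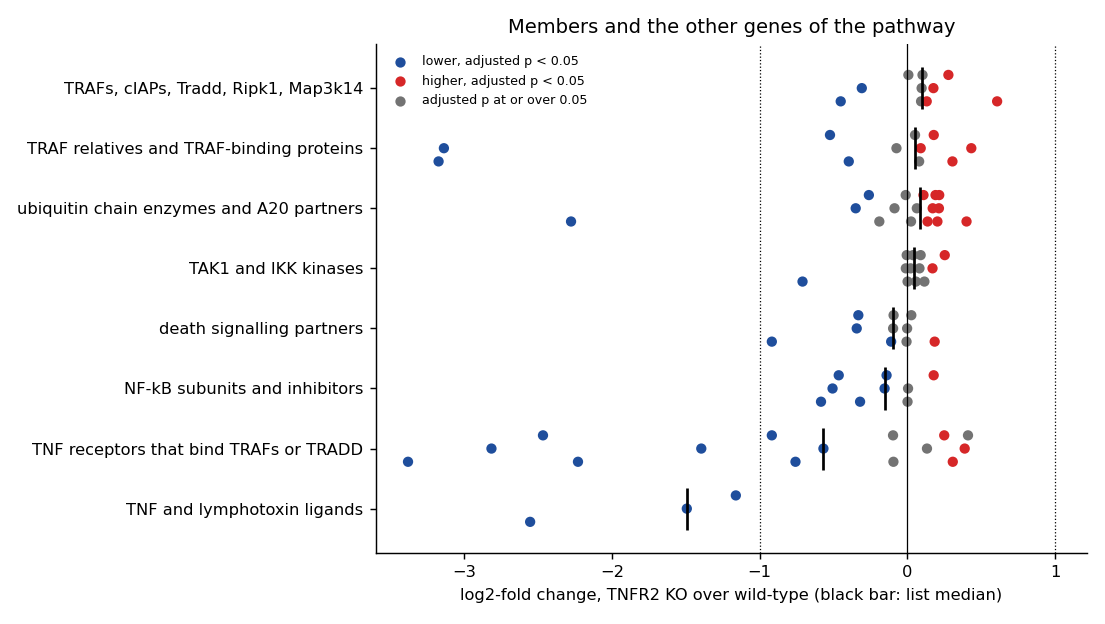
Log2-fold change (horizontal axis, positive where TNFR2 KO was higher) for the 10 genes and for the other genes of the pathway, 1 point per gene, coloured by direction where edgeR's adjusted p was under 0.05 with TMM scaling, with list medians as black bars and a change of 1 as dotted lines. The 10 genes lie between -0.45 and 0.61, whereas receptors and ligands reach -3.38, and points right of 0 turn negative when scaled on NK cell markers.

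The kinases downstream were mostly even with TMM scaling. Of 12 genes of the TAK1 and IKK group, 1 was lower and 2 were higher, and the median was 0.05. Among all genes tested 26.2% were lower and 24.2% higher. Ikbke, an IKK relative that takes part in interferon induction, fell from 133.4 and 131.2 to 81.7 and 79.97 CPM (-0.71, adjusted p = 3.75e-09, edgeR). Ikbkg and Ikbkb, which encode NEMO and IKK-beta of the canonical kinase complex, rose by 0.25 and 0.17 with TMM scaling and read -0.62 and -0.70 with scaling on NK cell markers. Of 10 death signalling partners 4 were lower and 1 higher with TMM scaling, beside the same shares of all genes (26.2% lower and 24.2% higher). Htra2, a mitochondrial protease that can inhibit IAPs, fell from 34.96 and 37.9 to 19.3 and 19.2 CPM (-0.92), and Mlkl, the executor of necroptosis, and Ripk2, the kinase of the NOD receptors, fell by 0.33 and 0.34 on the log2 scale.

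At the level of NF-kB itself, 6 of 9 genes were lower and 1 higher with TMM scaling, with a median of -0.15. Among all genes tested 26.2% were lower and 24.2% higher. Nfkb2, the substrate of the alternative pathway, fell from 119.6 and 119.4 to 78.95 and 80.4 CPM (-0.59, adjusted p = 2.465e-08, edgeR), and Nfkbia and Nfkbie, which encode inhibitors of NF-kB, fell by 0.32 and 0.47 on the log2 scale. The macrophage or monocyte (median -2.96), neutrophil (-2.29), mast cell or basophil (-5.03) and erythroid (-1.85) markers were lower in the same libraries, and their part in the decreases of NF-kB genes, kinases and death signalling partners was not tested. Relb and Nfkb1 are named after their values were seen. Relb, the partner of p52, fell by 0.51 on the log2 scale. With TMM scaling Nfkb1 measured between 399.4 and 402.2 CPM in all 4 libraries. Over all 76 other pathway genes tested, 29 were lower and 19 higher with TMM scaling, and 11 passed a change of 1, all of them lower. The shares over all genes tested were 26.2% lower and 24.2% higher. Past a change of 1 they were 11.8% lower and 1.56% higher, so large changes were mostly decreases in the whole table too.

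The scaling sets the sign of small differences. Scaling on 31 NK cell markers set the median over all genes at -0.88 on the log2 scale, and relative to that median Birc3 stood at -0.45, Traf3 at -0.31, Tradd at 0.28, Traf5 at 0.61, Traf1 at 0.18 and Birc2 at 0.13. The order of the 10 genes was therefore the same under both scalings, while the sign of all but Birc3 and Traf3 was not. Under this scaling 9 of the 10 genes were called lower, all but Traf5, where 88.5% of all genes were. Birc3 (-1.33) and Traf3 (-1.18) passed a change of 1 as well, 2 of the 10 where 34.4% of all genes did.

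**Figure D5:**
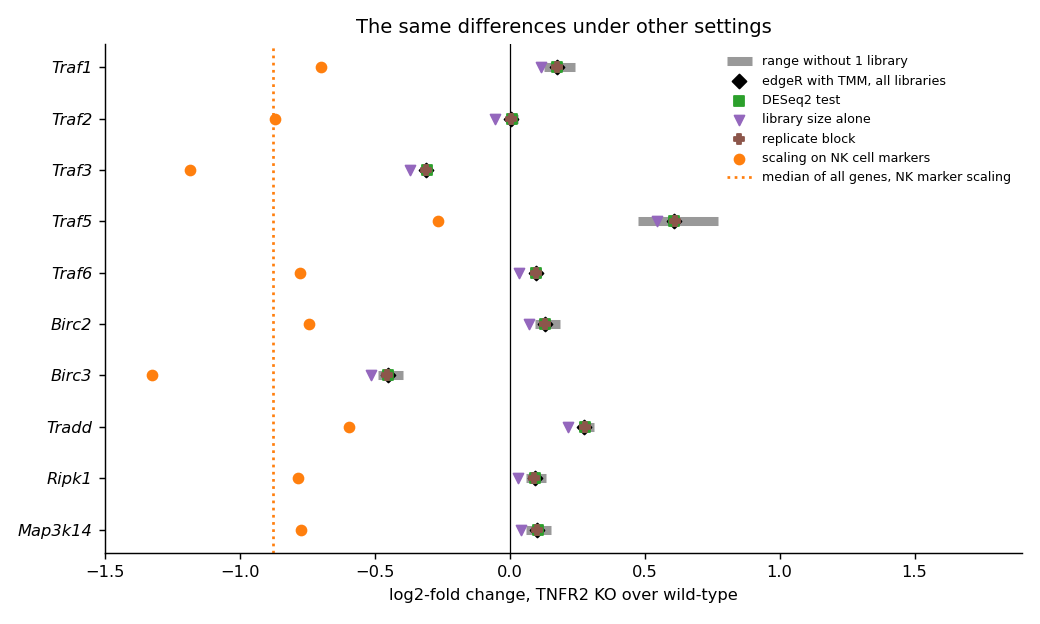
Log2-fold change (horizontal axis, positive where TNFR2 KO was higher) for each of the 10 genes with edgeR and TMM scaling, with DESeq2, with library size alone, with the replicate block and with scaling on NK cell markers, and the range with each library left out in turn as a grey bar. Scaling on NK cell markers moves every gene left by about the same amount, to either side of the median of all genes at -0.88 (dotted line).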

How the data were processed

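RNA-seq was analysed in 4 libraries of sorted Ly49H+ NK cells, 2 per genotype. The authors trimmed paired-end reads of 100 bp from a stranded poly-A library with Trimmomatic (1.4), assigned them to mm10 transcripts with Kallisto (0.46.1), summed them per gene with Tximport, and deposited these estimated counts (expected counts) unscaled. The sources used here do not name the transcript annotation. A row without a gene name (0.0559% to 0.0728% of counts) was left out. Counts were rounded, filtered with filterByExpr, scaled with TMM and tested with edgeR 4.0.16 (R 4.3.3). Genotype was the only term, with an adjusted p under 0.05 taken as a call. The pipeline was tested on simulated data in which a small share of genes changed, equally in both directions. In the real libraries 50.4% of genes were called and large changes were mostly decreases, so the simulation does not test the scaling. Same-numbered libraries share a spleen pool per the labels, which pairs them. The deviations of paired libraries correlated at 0.024 across genes. Alternatives were DESeq2 1.42.0, its size factors, library size alone, scaling on NK cell markers, no filter, a minimum mean of 10 CPM, the replicate block, and each library left out. The genes and lists were chosen with earlier results of these data known. Named genes are the 10, Tnfrsf1b, Tnfrsf1a, Tnf, the 3 genes of each pathway list with the smallest adjusted p, the 3 profiles most like the strongest member in each direction, and those said to be added. The most abundant marker of each cell type list in wild-type was Gzma, Lyz2, Mpo, Prss34, Cd74, Bank1, Cd4 and Hba-a1, and their log2-fold changes were 1.08, -2.79, -6.50, -6.18, -3.57, -2.08, -0.56 and -2.39. Positions and shared stretches are from GENCODE release M21, and promoter sequences from RefSeq.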

Additional observations from a re-analysis of the deposited data

Results flagged for a closer look

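The row without a gene name, which no comparison used, held more of the counts in TNFR2 KO than in the wild-type control libraries. Its share was 0.0722% on average in TNFR2 KO (0.0716% and 0.0728%) and 0.0559% and 0.0561% in wild-type.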

How the results depend on the processing

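Birc3 and Traf3 were called lower in all 11 alternatives and Tradd was called in all 11. Of 109 values of the 10 genes under an alternative, 86 kept direction and side of the threshold, 8 lost and 4 gained a call, and 11 changed sign. Scaling on NK cell markers called 9 of the 10 genes lower, 0 higher and 2 past both thresholds, and 76 lower and 0 higher of the other pathway genes. It gave -0.70 for Traf1, -0.87 for Traf2, -0.27 for Traf5, -0.78 for Traf6, -0.74 for Birc2, -0.60 for Tradd, -0.78 for Ripk1 and -0.77 for Map3k14. The median over all genes was -0.88 with this scaling and -0.003 with TMM scaling, and which of them is right was not tested. Traf2 also turned to -0.054 with library size alone, -0.03 with a mean of at least 10 CPM and -0.004 without TNFR2 KO replicate 1 (up to 0.03, without TNFR2 KO replicate 2), and the cause was not tested. The number of higher genes among the 10 was 2 with library size alone, 2 with a mean of at least 10 CPM, where Traf5 was not tested, and between 1 (without wild-type replicate 1, Tradd) and 5 (without TNFR2 KO replicate 2) with a library left out. The other pathway genes had 12 higher calls with library size alone, which moved the median of all genes to -0.06. Among all genes, the calls at an adjusted p under 0.05 were 6965, against 5413 with DESeq2, and those past both thresholds 1842, against 480 with a mean of at least 10 CPM and 4752 with scaling on NK cell markers. All genes called with library size alone split into 4388 lower and 2419 higher, and with scaling on NK cell markers into 12232 and 109, against 3624 and 3341 with TMM. With the replicate block 5 of the 10 genes were higher and 2 lower, as Ripk1 gained its call, and no other call among the 10 changed with the pairing. Where a library was left out, the lone library was assumed to vary like the other genotype. Traf5, with 108 to 188 counts per library, was the gene most limited by depth.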
